A study of Mus musculus with 6 samples.

Results

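Heat shock proteins and their DnaJ cochaperones were followed in migratory cDC1, type 1 conventional dendritic cells, which cross-present captured antigen to CD8 T cells. With earlier results of these data known, the members were taken by a rule on gene symbols that uses no measured value. They are the genes with an unambiguous probe set whose symbol begins with Hspa, Hspb, Hspd, Hspe, Hsph, Hsp90, Dnaja, Dnajb or Dnajc followed by a number, 63 genes of 12780 that could be compared. They comprised 2 HSP90, 8 HSP70, 3 HSP110, 7 small heat shock protein and 2 chaperonin genes, together with 4 DNAJA, 12 DNAJB and 25 DNAJC genes. RefSeq lists 72 protein-coding mouse genes with such symbols. The other 9, which are Hsp90ab1, Hspa1b, Hspa1l, Hspa12a, Hspb3, Dnajb7, Dnajc5b, Dnajc5g and Dnajc28, had no probe set of their own in the table and were not analysed here.

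Anti-CD40 stimulated cells and unstimulated cells were each hybridised on 3 Affymetrix arrays, 1 sample per array. Both groups were wild-type C57BL/6 migratory cDC1 sorted from skin-draining lymph nodes on the same surface markers, CD40 among them. Whether the antibody was given to the mouse or to cells in culture, and at what dose, time and age of the mice, the labels do not say. The labels call the samples biological replicates but do not tie them to separate mice, so p-values measure the spread between these samples only, which may be partly technical.

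HSP70 proteins hold and release unfolded segments of other proteins in a cycle driven by ATP. DnaJ proteins, also called HSP40 or J-domain proteins, bring substrates to HSP70 and stimulate its ATPase, while HSP110 proteins help it exchange nucleotide. HSP90 proteins finish the folding of kinases, receptors and other clients, small heat shock proteins bind aggregating proteins without ATP, and the chaperonin HSP60 with its lid HSP10 folds proteins inside mitochondria. Cytosolic members are raised by heat and other proteotoxic stress through the transcription factor HSF1, and members of the endoplasmic reticulum (ER) through the unfolded protein response. In dendritic cells the ER member GRP94 folds Toll-like receptors and integrins, and cytosolic chaperones have been linked to the handling of antigen for presentation.

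The promoter sequences of the members are shown first, since some of them hold letters of the elements known from both stress responses. RefSeq windows of 300 bases on GRCm38.p6, 250 before and 50 after a transcription start, were matched by symbol for 51 of the 63 members. The heat shock element was searched as GAANNTTCNNGAA on both strands, which is 3 alternating units of the HSF1 site. It was found in 198 of 32851 windows (0.603%) and in 6 of the 67 windows of members, those of Hspd1, Hspe1, Hsph1 and Dnajb6. The ER stress response element was searched as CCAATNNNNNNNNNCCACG on both strands, a pattern that includes a CCAAT box. It was found in 39 of all windows (0.119%) and in 3 windows of members, those of Hspa5, Hsp90b1 and Dnajc3. An NF-kB-like pattern, GGGNNTTTCC on both strands, was found in 535 of all windows (1.63%) and in 1 window of a member, that of Hspa14. A match is a description of letters and not evidence of binding. A window with no match may hold a site that departs from these letters, which was not searched. Members without a window were Hsp90aa1, Hspa8, Hspa9, Hspa13, Hspb2, Dnajc2, Dnajc5, Dnajc11, Dnajc12, Dnajc18, Dnajc22 and Dnajc30.

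The 250 bases before the start of 3 ER members are shown because they share an element and their values can be set side by side. Capitals mark each match to the ER stress response element, and each sequence reads along the strand of its gene. Hspa5 lies at chr2:34771840-34772089 on the plus strand, with the element's first base 65 bases before the start (position -65). Hsp90b1 lies at chr10:86705445-86705694 on the minus strand, with elements from position -212 and, on the opposite strand, from position -107. Dnajc3 lies at chr14:118937682-118937931 on the plus strand, with the element from position -105.
Hspa5: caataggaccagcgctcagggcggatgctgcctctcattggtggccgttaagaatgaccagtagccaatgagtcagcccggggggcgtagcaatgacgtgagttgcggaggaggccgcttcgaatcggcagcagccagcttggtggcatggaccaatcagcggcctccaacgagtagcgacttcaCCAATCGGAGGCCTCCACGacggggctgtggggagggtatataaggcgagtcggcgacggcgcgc
Hsp90b1: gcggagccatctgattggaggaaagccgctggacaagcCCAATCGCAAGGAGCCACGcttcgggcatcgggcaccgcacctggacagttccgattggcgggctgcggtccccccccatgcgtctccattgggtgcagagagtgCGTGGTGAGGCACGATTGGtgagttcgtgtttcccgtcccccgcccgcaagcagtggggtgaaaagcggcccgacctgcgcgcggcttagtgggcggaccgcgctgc
Dnajc3: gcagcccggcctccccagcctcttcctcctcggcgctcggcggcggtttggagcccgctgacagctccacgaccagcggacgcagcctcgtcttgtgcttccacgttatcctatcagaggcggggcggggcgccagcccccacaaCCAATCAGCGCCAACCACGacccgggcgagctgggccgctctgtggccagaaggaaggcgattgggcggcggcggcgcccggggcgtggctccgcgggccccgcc

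For the heat shock element, 30 bases around the match are shown, again with the match in capitals. In Hspe1 (chr1:55088053-55088082, plus strand) overlapping matches on both strands begin at positions -89 and -84. The window of the neighbouring Hspd1, which is read from the other strand, holds the same letters. The stretch lies inside Hspd1 as annotated, as does the Hspd1 start used here. In Hsph1 (chr5:149636287-149636316, minus strand) the match begins after the start, at position 37 or 16 depending on which of the listed starts is used. Both of these starts lie inside the gene as annotated. In Dnajb6 (chr5:29735844-29735873, plus strand) it begins at position -46 or -127, and the stretch also lies within the annotated span of the predicted gene Gm5129. For Hspa2 (chr12:76404328-76404357, plus strand), the member with the largest difference between the groups, the window held none of the 3 patterns. Its capitals mark a CCAAT box on the opposite strand, which begins at position -29 of the only start listed, a start that lies inside the gene as annotated. CCAAT alone was not among the searched patterns, and no share over all windows is given for it.
Hspe1: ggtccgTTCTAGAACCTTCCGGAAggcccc
Hsph1: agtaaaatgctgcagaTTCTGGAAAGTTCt
Dnajb6: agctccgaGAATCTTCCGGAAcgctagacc
Hspa2: ggcccggggaccgATTGGctctgagagttt

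Across the whole table, 2 genes passed as higher in stimulated cells (0.0156% of 12780) and 0 as lower (0%), at a Benjamini-Hochberg adjusted p under 0.05 in limma. The median log2 intensity of all genes was 5.74. Between arrays within a group, Pearson's r over genes was 0.915 to 0.958. Between arrays of different groups it was 0.901 to 0.980, highest for replicate 1 of each group, so that pair was more alike than any within a group. The interquartile range of log2 intensities ran from 1.75 to 2.31 on stimulated and from 1.74 to 2.19 on unstimulated arrays. All 7 markers of migratory dendritic cells were measured and had positive differences, with a median of 0.60. Ccr7 was at 12.66 in stimulated and 12.51 in unstimulated cells, Cd40 at 9.61 and 8.603 and Cd86 at 11.11 and 9.57, and 0 of the 7 passed in limma. Of 10 cDC1 markers 9 were measured, 5 with positive and 4 with negative differences. Irf8 was at 11.64 in stimulated and 11.00 in unstimulated cells, Cadm1 at 7.79 and 7.43, Cd24a at 10.78 and 11.26 and Clec9a at 6.41 and 6.67. Of the same list Xcr1, Itgae, Naaa and Wdfy4 were dim, at 4.67 to 5.11 in stimulated and 4.44 to 5.18 in unstimulated cells. Markers of B cells (2 of 5 measured), T cells (3 of 5), monocytes and macrophages (1 of 6), neutrophils (1 of 3), cDC2 (2 of 5) and Langerhans cells and keratinocytes (3 of 4) had group means between 4.39 and 5.68 in stimulated and between 4.43 and 5.44 in unstimulated cells. Single arrays reached 6.39, for Irf4 on stimulated replicate 1. Stimulated values were higher with no overlap for Epcam (means 5.31 and 4.74), Cd3e (5.63 and 5.44) and Sirpa (4.83 and 4.67). The groups overlapped for the other genes of these lists. Over all genes, 3.68% were higher with no overlap. All 3 T cell genes had positive differences. The log2 of the summed intensity of the T cell markers was 6.54 to 7.49 on stimulated and 6.26 to 7.04 on unstimulated arrays, and that of the plasmacytoid dendritic cell markers (3 of 4 measured) 8.66 to 9.30 and 8.78 to 9.10. For fibroblast and endothelial markers (4 of 5) it was 6.96 to 7.47 on stimulated and 7.18 to 7.42 on unstimulated arrays. The part of other cells in any chaperone value was not tested. Fewer cells of a type and less RNA per cell cannot be told apart in such samples.

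Most chaperone genes differed little between stimulated and unstimulated cells, and Hspa2 alone differed by more than 1 on the log2 scale. Of the 63 members, 0 passed in limma as higher and 0 as lower. With no adjustment, 2 members had p under 0.05 and were higher, Hspa2 and Dnajc3 (3.17%, beside 2.07% of all genes), and 0 lower ones (beside 1.42% of all genes). The groups did not overlap for 3 members with higher stimulated values, Hspa2, Dnajc3 and Dnajc18 (4.76%, beside 3.68% of all genes), and for 1 with lower ones, Dnajb9 (1.59%, beside 3.46% of all genes). These shares were near those of the whole table. The median log2 difference of the members was 0.02, against 0.005 for all genes, with 37 positive and 26 negative. A total of 54 members (85.7%) differed by less than 0.5 on the log2 scale, as did 92.6% of all genes, and 1 member (1.59%) by at least 1, as did 0.884% of all genes. The members beyond 0.5 were Hspa2, Hspa1a, Hspb1, Dnajb2, Dnajc3 and Hspb6 on the positive side and Dnajb9, Dnajc10 and Dnajb3 on the negative side.

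**Figure D1:**
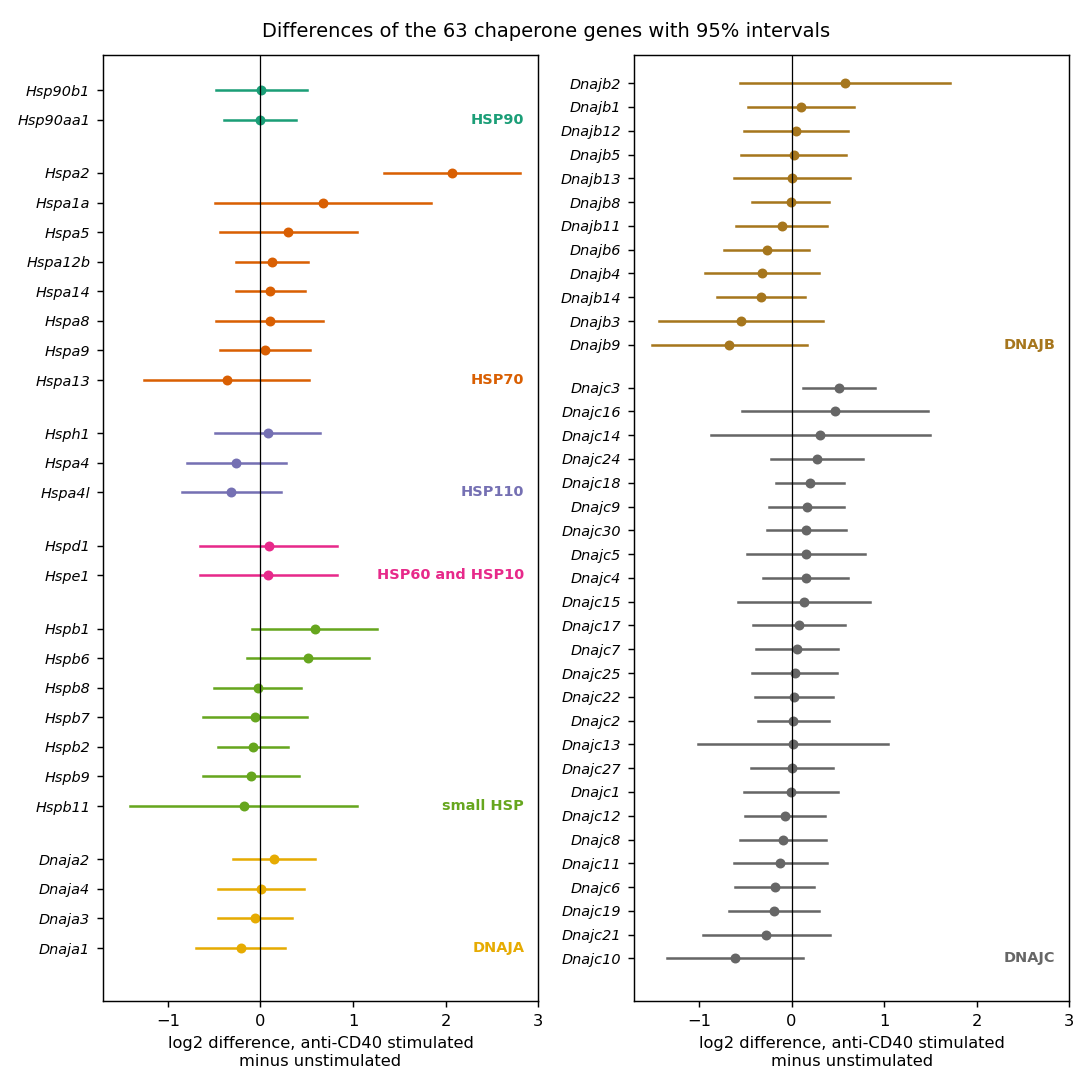
Log2 difference (anti-CD40 stimulated minus unstimulated, x axis) of each of the 63 chaperone genes, with points for the limma estimate from 3 arrays per group and lines for its 95% interval, grouped and coloured by protein family. Hspa2 stands at 2.07 with an interval of 1.34 to 2.81, Dnajc3 at 0.52 with 0.13 to 0.91, and the interval of every other member holds 0.

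Hspa2 encodes an HSP70 protein best known from the testis, where mouse spermatocytes need it to complete meiosis. Its log2 intensity was 8.37, 7.57 and 8.28 in stimulated replicates 1, 2 and 3, against 6.48, 5.53 and 6.01 in unstimulated replicates 1, 2 and 3. All 3 stimulated arrays lay above all 3 unstimulated ones, and the lowest stimulated value exceeded the highest unstimulated one. On the linear scale of the deposited intensities these were 331.6, 190.5 and 311.7 in stimulated cells, against 89.1, 46.2 and 64.4 in unstimulated cells. The means were 8.08 ± 0.44 in stimulated and 6.00 ± 0.47 in unstimulated cells (SD, n = 3 each), a 4.20-fold difference (95% interval 2.53 to 6.997).

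The log2 difference of Hspa2 was 2.07 ± 0.31 (SE), with an unadjusted p of 0.00026 and a limma adjusted p of 0.208 over all 12780 genes, so it did not pass. It was the 7th largest positive difference in the table, among 77 genes at least 1 log2 unit higher. With array weights (limma adjusted p = 0.00893) or with a covariate for the interquartile range of the arrays (limma adjusted p = 0.0082) it passed, and without any 1 array it differed by 1.83 to 2.32 with limma adjusted p from 0.267 to 0.99999. Hspa2 was represented by 1 probe set, 10396652, and the gene lies at chr12:76403812-76406938 on GRCm38.

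**Figure D2:**
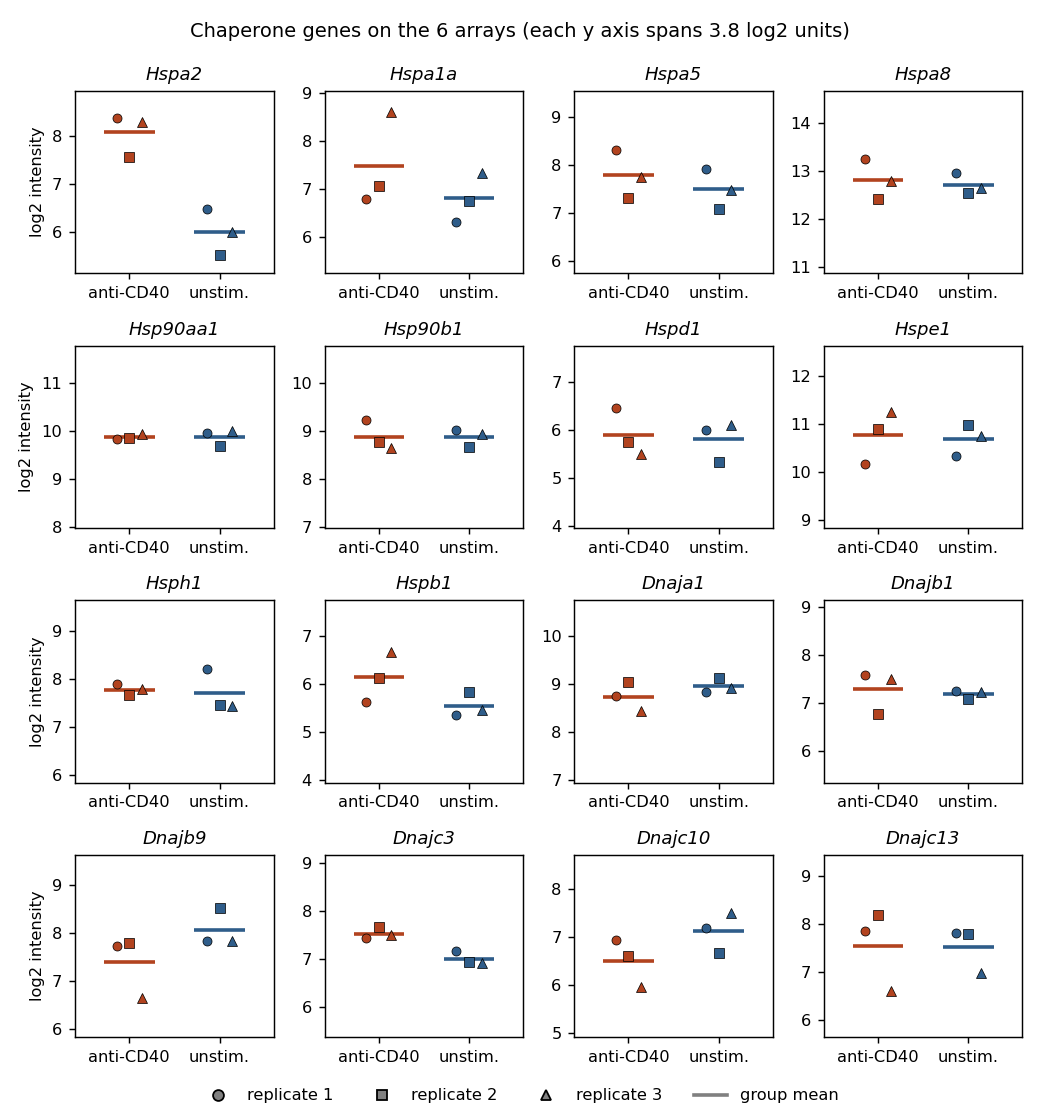
Log2 intensity (y axes, each spanning 3.8 units) of 16 chaperone genes on the 3 anti-CD40 stimulated arrays, left, and the 3 unstimulated arrays, right, with the replicate number given by the symbol and the group mean by a bar. The groups are apart for Hspa2 and Dnajc3, where stimulated values are higher, and for Dnajb9, where they are lower; Hsp90aa1 lies within 9.68 to 10.001 on all 6 arrays.

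None of the other 7 HSP70 genes passed. Hspa1a, the heat-inducible cytosolic HSP70, was at 6.79, 7.06 and 8.62 in stimulated replicates 1, 2 and 3, against 6.33, 6.77 and 7.35 in unstimulated replicates 1, 2 and 3. Replicate 3 was the highest array in both groups, and the groups overlapped. The difference was 0.68 ± 0.50 (SE), with 0.11 without stimulated replicate 3 and 1.03 without stimulated replicate 1. A probe set that names both Hspa1a and its near-identical copy Hspa1b, which was not used for any gene, had 6.76, 6.54 and 8.41 in stimulated cells, against 6.58, 6.65 and 7.07 in unstimulated cells. It too was highest on stimulated replicate 3.

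Hspa8, which encodes the constitutive cytosolic HSC70, was at 13.25, 12.43 and 12.79 in stimulated cells, against 12.96, 12.55 and 12.66 in unstimulated cells. It differed by 0.10 (95% interval -0.48 to 0.68), a difference within the range of either group. Its 3 probe sets differed by -0.05 to 0.10, and RefSeq lists 16 pseudogenes whose symbols match the rule, so probe sets of such genes may also detect copies. Hspa5, which encodes the ER HSP70 BiP, was at 8.32, 7.33 and 7.75 in stimulated cells, against 7.92, 7.08 and 7.49 in unstimulated cells, a difference of 0.30 ± 0.32 (SE). In both groups replicate 1 was highest and replicate 2 lowest, and the difference was 0.04 without stimulated replicate 1 and 0.54 without stimulated replicate 2.

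The remaining HSP70 genes had overlapping groups. Hspa9, the mitochondrial HSP70 mortalin, differed by 0.05, and Hspa14, which works at the ribosome together with the J protein encoded by Dnajc2, by 0.11 (Dnajc2 itself by 0.02). Hspa12b, a distant member of the family, differed by 0.12. Hspa13, a microsomal HSP70-like protein, was at 6.04, 4.57 and 4.75 in stimulated cells, against 5.56, 5.62 and 5.28 in unstimulated cells. Stimulated replicate 1 lay above every unstimulated array and the other two stimulated arrays lay below them, for a difference of -0.37 (95% interval -1.26 to 0.53). It was -0.82 without stimulated replicate 1 and -0.09 without stimulated replicate 2.

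Of the HSP110 genes, which serve HSP70 as exchange factors, 0 of 3 passed. Hsph1 differed by 0.08 ± 0.24 (SE), Hspa4 by -0.26 ± 0.23 and Hspa4l by -0.31 ± 0.23. Hsph1 is a textbook heat-inducible gene with a heat shock element match just after the starts used here, which lie inside the gene as annotated. Its values were 7.90, 7.66 and 7.79 in stimulated cells, against 8.21, 7.46 and 7.45 in unstimulated cells. The stimulated arrays lay inside the range of the unstimulated ones.

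The 2 measured HSP90 genes had nearly the same level in both groups. Hsp90aa1, the stress-inducible cytosolic HSP90, was at 9.84, 9.86 and 9.94 in stimulated cells, against 9.96, 9.68 and 10.001 in unstimulated cells, and differed by -0.005 (95% interval -0.39 to 0.38). Its 3 probe sets differed by -0.005 to 0.02. Hsp90b1, which encodes GRP94 of the ER, was at 9.22, 8.78 and 8.65 in stimulated cells, against 9.02, 8.67 and 8.93 in unstimulated cells, and differed by 0.01 (95% interval -0.48 to 0.50). These intervals set the precision: a difference beyond about 0.5 in either gene lay outside them.

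Hspd1 and Hspe1 encode mitochondrial HSP60 and HSP10, and their windows share the letters of the heat shock element shown above. Each differed by 0.09, with intervals of -0.65 to 0.83 and -0.65 to 0.82. Hspd1 was at 6.45, 5.74 and 5.50 in stimulated replicates 1, 2 and 3, where Hspe1 was at 10.16, 10.90 and 11.25. In unstimulated replicates 1, 2 and 3 Hspd1 was at 6.00, 5.32 and 6.11 and Hspe1 at 10.32, 10.98 and 10.75. Replicate 1 was above replicate 2 for Hspd1 and below it for Hspe1 in both groups.

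Among the small heat shock proteins 0 of 7 passed, and 2 had differences over 0.5. Hspb1, which encodes the actin-binding and heat-inducible HSP25 (HSP27 in human), was at 5.64, 6.12 and 6.67 in stimulated cells, against 5.36, 5.85 and 5.47 in unstimulated cells. It differed by 0.59 (95% interval -0.09 to 1.26), and its other probe set by 0.59. Stimulated replicate 3 was the highest array, and the difference was 0.32 without it and 0.84 without stimulated replicate 1. Hspb6, which encodes HSP20, was at 6.04, 5.27 and 5.66 in stimulated cells, against 5.62, 4.84 and 4.98 in unstimulated cells, and differed by 0.51 (95% interval -0.15 to 1.18), or by 0.32 to 0.75 with any 1 array left out.

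The groups of Hspb6 overlapped, with stimulated replicate 2 below unstimulated replicate 1. The other small heat shock proteins, Hspb2, Hspb7, Hspb8, Hspb9 and Hspb11, differed by -0.18 to -0.03. Hspb11, whose product is part of the transport machinery of cilia rather than a chaperone in the strict sense, had the widest spread, at 7.48, 8.93 and 7.98 in stimulated cells, against 7.42, 9.23 and 8.29 in unstimulated cells. With any 1 array left out its difference ran from -0.63 to 0.28.

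The J proteins of the DNAJA class, which act with cytosolic or mitochondrial HSP70, had differences from -0.21 to 0.15, and 0 of 4 passed. Dnaja1 was at 8.74, 9.02 and 8.43 in stimulated cells, against 8.82, 9.11 and 8.90 in unstimulated cells. It differed by -0.21 with the brighter probe set and by 0.19 with the other, so its direction depended on the probe set. Dnaja2 differed by 0.15, the mitochondrial Dnaja3 by -0.06 and Dnaja4 by 0.002.

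Of the 12 DNAJB genes 0 passed. Dnajb1, which encodes the classic heat-inducible HSP40, was at 7.58, 6.77 and 7.50 in stimulated cells, against 7.25, 7.07 and 7.22 in unstimulated cells, and differed by 0.10 ± 0.24 (SE). Stimulated replicate 2 lay below the unstimulated arrays and the other two above them. Dnajb6, a suppressor of protein aggregation whose windows match the heat shock element pattern, differed by -0.27 (95% interval -0.73 to 0.19). Dnajb4, another cytosolic partner of HSP70, differed by -0.32, and the ER membrane proteins' genes Dnajb12 and Dnajb14 by 0.05 and -0.33.

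Dnajb2, known from neurons as a J protein that binds ubiquitin, was at 7.23, 5.90 and 6.69 in stimulated cells, against 6.99, 5.47 and 5.63 in unstimulated cells. The difference of 0.58 was within the spread of either group (SD 0.67 in stimulated and 0.83 in unstimulated cells, n = 3 each). It was 0.27 without stimulated replicate 1 and 1.06 without unstimulated replicate 1. The testis genes Dnajb3, Dnajb8 and Dnajb13 differed by -0.55, -0.01 and 0.002. Dnajb3 was at 4.79, 5.16 and 4.91 in stimulated cells, against 4.63, 6.15 and 5.73 in unstimulated cells, with unstimulated replicate 1 the lowest of all 6 arrays, and its difference ran from -0.98 to -0.22 with any 1 array left out. Dnajb5 differed by 0.02.

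The members grouped here as ER proteins were mixed in direction. These 8 genes were Hsp90b1, Hspa5, Hspa13, Dnajb9, Dnajb11, Dnajc1, Dnajc3 and Dnajc10. Of them 3 had positive and 5 negative differences, the median was -0.06, and 0 passed. Dnajb12, Dnajb14 and Dnajc14, also tied to the ER, were not in this group. Dnajc3 encodes p58IPK, a lumenal J protein that also restrains the stress kinase PERK. It was at 7.43, 7.66 and 7.49 in stimulated cells, against 7.17, 6.95 and 6.92 in unstimulated cells, and all stimulated arrays lay above all unstimulated ones. It differed by 0.52 ± 0.17 (SE), with an unadjusted p of 0.0161 and a limma adjusted p of 0.99998. Over 14 alternative fits the difference ran from 0.43 to 0.60 and the smallest limma adjusted p was 0.088.

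Dnajb9, which encodes ERdj4, a J protein that directs misfolded ER proteins to degradation, was at 7.74, 7.79 and 6.64 in stimulated cells, against 7.84, 8.52 and 7.83 in unstimulated cells. All stimulated arrays lay below all unstimulated ones, with stimulated replicates 1 and 2 just under the nearest unstimulated value. The difference was -0.67 (95% interval -1.51 to 0.16, limma adjusted p = 0.99998), with -0.30 without stimulated replicate 3 and -0.87 without stimulated replicate 2. Dnajc10, which encodes ERdj5, a reductase of disulfide bonds in the same pathway, was at 6.94, 6.61 and 5.97 in stimulated cells, against 7.19, 6.67 and 7.49 in unstimulated cells. It differed by -0.61 (95% interval -1.35 to 0.12). Without stimulated replicate 3, the lowest array for both genes, it differed by -0.34, and with array weights by -1.19 (limma adjusted p = 0.0901).

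The remaining J proteins of the ER group above had differences near 0. Dnajb11 (ERdj3), a secreted and lumenal J protein, differed by -0.11 and Dnajc1 (ERdj1) by -0.005. The 3 members with a match to the ER stress response element pattern, Hspa5, Hsp90b1 and Dnajc3, differed by 0.30, 0.01 and 0.52, with the spread over arrays given above. The 4 with a match to the heat shock element pattern, Hspd1, Hspe1, Hsph1 and Dnajb6, differed by 0.09, 0.09, 0.08 and -0.27. In neither set did a gene pass, and Hspa14, with the NF-kB-like letters, differed by 0.11.

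**Figure D3:**
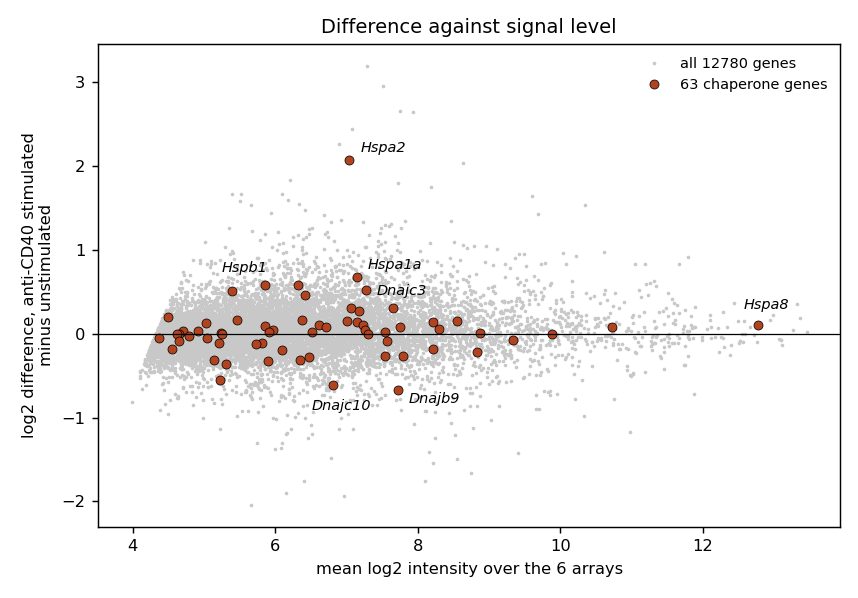
Log2 difference (anti-CD40 stimulated minus unstimulated, y axis) against the mean log2 intensity over the 6 arrays (x axis) for all 12780 genes, in grey, and the 63 chaperone genes, in red. Hspa2 stands at 2.07, while Hspa8 lies at 0.10 and the lowest member, Dnajb9, at -0.67.

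Of 25 DNAJC genes, a class defined by the J domain alone and with the most diverse tasks, 0 passed, 17 were positive and 8 negative, and 23 differed by less than 0.5. Dnajc16 differed by 0.47 and Dnajc14, whose product helps receptors leave the ER, by 0.31, both with wide spread: Dnajc14 was at 8.08, 6.36 and 7.20 in stimulated cells, against 7.53, 6.10 and 7.07 in unstimulated cells. With any 1 array left out, Dnajc14 differed by -0.12 to 0.74 and Dnajc16 by 0.09 to 0.92. Dnajc18 was at 4.59, 4.52 and 4.66 in stimulated cells, against 4.44, 4.46 and 4.26 in unstimulated cells. The groups did not overlap, but the difference of 0.20 had an interval of -0.17 to 0.57 and the gene lay under the lower quartile of all genes (4.94), as did 9 members in all.

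Genes of vesicle traffic in this class had intervals that held 0 with their brightest probe set. Dnajc5, which encodes the cysteine string protein of secretory vesicles, differed by 0.16 (95% interval -0.48 to 0.79) and Dnajc6, the clathrin uncoating factor auxilin, by -0.18. Dnajc13, which encodes the endosomal protein RME-8, had 14 probe sets. The brightest was at 7.85, 8.20 and 6.61 in stimulated cells, against 7.81, 7.80 and 6.99 in unstimulated cells, with replicate 3 lowest in both groups. It differed by 0.02, but the 14 probe sets differed by -0.93 to 0.34, with 12 negative and 2 positive, and their mean by -0.39. Probe set 10596281 was at 6.24, 6.03 and 5.91 in stimulated cells, against 6.31, 6.32 and 6.49 in unstimulated cells. Its groups did not overlap, and it differed by -0.31.

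Mitochondrial J proteins lay close to 0. Dnajc15 and Dnajc19, which belong to the import motor of the inner membrane, differed by 0.14 and -0.19, Dnajc11 by -0.12 and Dnajc30 by 0.16. Over all 8 mitochondrial members, Hspa9, Hspd1 and Hspe1 included, the differences ran from -0.19 to 0.16. Genes for nuclear and ribosomal tasks were Dnajc8 and Dnajc17 of splicing (-0.09 and 0.08), Dnajc9, a histone chaperone (0.16), Dnajc21 of ribosome maturation (-0.27) and Dnajc24 of diphthamide synthesis (0.28). Dnajc12, known as a partner of aromatic amino acid hydroxylases, was at 9.54, 9.29 and 9.09 in stimulated cells, against 9.54, 9.28 and 9.31 in unstimulated cells. It differed by -0.07, and Dnajc7, an adaptor between HSP70 and HSP90, by 0.06. Dnajc4, Dnajc22, Dnajc25 and Dnajc27 differed by 0.005 to 0.15.

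Many members differed between replicates 1 and 2 in the same direction in stimulated and unstimulated cells. In both groups replicate 1 was above replicate 2 for 26 members (41.3%) and below it for 25 (39.7%), with 12 mixed. Over all genes the shares were 40.1% and 35.6%. Across the 63 members the difference between replicates 1 and 2 in stimulated cells and that in unstimulated cells had a Pearson's r of 0.761, and 0.737 across all genes. These are correlations across genes, which are not independent replicates and share the arrays.

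Among the members higher on replicate 1 were Dnajc14 (1.72 in stimulated and 1.43 in unstimulated cells), Dnajb2 (1.33 and 1.52), Hspa5 (0.99 and 0.84), Dnajc16 (0.80 and 1.66) and Hspa2 (0.80 and 0.95). Those lower on replicate 1 included Hspb11 (-1.45 and -1.81) and Hspe1 (-0.73 and -0.66). Hspa13 differed by 1.46 in stimulated cells and by -0.06 in unstimulated cells. No label names a batch or a day, so the part of the arrays in these values was not tested.

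**Figure D4:**
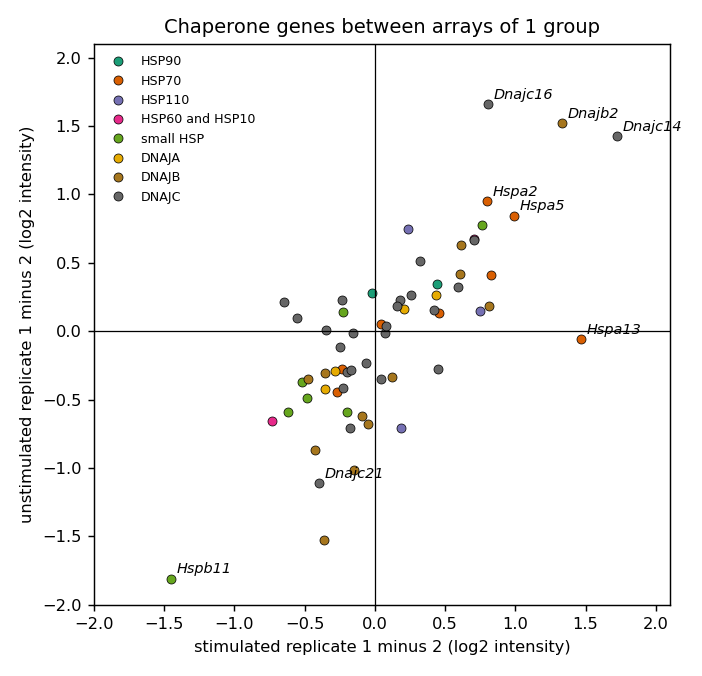
Replicate 1 minus replicate 2, in log2 intensity, for the 63 chaperone genes in stimulated cells (x axis) and in unstimulated cells (y axis), coloured by family. Most genes lie in the lower left and upper right, with Hspb11 at -1.45 and -1.81 and Dnajc14 at 1.72 and 1.43.

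Stimulated replicate 3 stood apart for several members. Set against the mean of the other two stimulated arrays it was 1.69 higher for Hspa1a, 0.88 higher for Dnajc15, 0.78 higher for Hspb1 and 0.72 higher for Hspe1. It was lower by the log2 difference of -1.42 for Dnajc13, -1.12 for Dnajb9 and -0.81 for Dnajc10. Values without this array are given beside Hspa1a, Hspb1, Dnajb9 and Dnajc10 above.

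Companion genes of the chaperone network were described by 7 lists, in which 0 genes passed. Of the HSF and exchange factor list 16 of 17 were measured, 8 positive and 8 negative, with a median of 0.03. Bag3, an exchange factor of HSP70 that HSF1 induces and that binds small heat shock proteins, was at 6.92, 6.29 and 6.86 in stimulated cells, against 5.68, 6.13 and 5.95 in unstimulated cells. All stimulated arrays lay above all unstimulated ones, and the difference was 0.77 ± 0.23 (SE, unadjusted p = 0.0118, limma adjusted p = 0.99998 over all genes). The mitochondrial exchange factor gene Grpel1 differed by 0.53 ± 0.37 (SE) and the HSF-binding gene Hsbp1 by -0.09. Of the HSF genes themselves, Hsf2 differed by -0.54 ± 0.40 (SE), with overlapping groups. Hsf5 differed by -0.15 ± 0.15 (SE), and all its stimulated arrays lay below all its unstimulated ones.

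Among HSP90 and HSP70 cochaperones 22 of 23 were measured, 15 positive and 7 negative, with a median of 0.10. Pih1d1, an adaptor of HSP90 to complexes such as RNA polymerase, differed by 0.54 (95% interval -0.13 to 1.20), the mitochondrial import receptor gene Tomm70a by -0.43 (-1.02 to 0.16) and Ptges3, which encodes the HSP90 cochaperone p23, by -0.02. The cytosolic chaperonin and prefoldin list had all 15 measured and a median of 0.07, with Pfdn2 at 0.35, Pfdn6 at 0.46 and Pfdn5 at 0.04. The mitochondrial proteostasis list had 11 of 12 measured and a median of -0.02, with the protease subunit gene Clpx at -0.60 (95% interval -1.23 to 0.03) and the protease gene Htra2 at 0.51.

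ER folding genes, 15 of 17 measured, had a median of 0.22 with 11 positive and 4 negative differences, where the median of all genes was 0.005. Calr and Canx, the lectin chaperones calreticulin and calnexin, differed by 0.38 (95% interval -0.43 to 1.19) and 0.29 (-0.42 to 1.01), and Fkbp2, an ER prolyl isomerase, by 0.36. The unfolded protein response list, 13 of 14 measured, had a median of 0.05 with 7 positive and 6 negative differences. Herpud1, which encodes an ER membrane protein of protein degradation, was at 8.37, 6.82 and 8.15 in stimulated cells, against 9.50, 8.22 and 8.42 in unstimulated cells. It differed by -0.94 (95% interval -2.08 to 0.21), and the groups did not separate. Chac1, which encodes an enzyme of glutathione breakdown, differed by -0.34 and Edem1, of ER degradation, by -0.05. On the positive side Ppp1r15a, a phosphatase subunit that ends the stress block on translation, differed by 0.48 and Sel1l, of the ER degradation complex, by 0.45.

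Immediate early genes, which rise in cells handled during tissue digestion and sorting together with some heat shock genes, had 17 of 18 measured and a median of 0.07. Of these, 13 differences were positive (76.5%, beside 51.0% of all genes) and 4 negative. Dusp1 differed by 0.91 (95% interval -0.59 to 2.42), Junb by 0.97 (-0.36 to 2.30) and Egr1 by 0.38 (-0.10 to 0.86). The log2 of the summed intensity of the list was 12.29 to 13.55 on stimulated and 11.84 to 13.10 on unstimulated arrays. The ranges overlapped, and the part of these genes' response in the chaperone values was not tested.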

How the data were processed

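Per the submitters' processing notes, the authors made the values with Affymetrix Expression Console and RMA, which corrects background, normalises arrays by quantiles and summarises probes. No version or setting is named there. The deposited table holds 1 intensity per probe set and array (17551 probe sets, 6 arrays) on a linear scale from 6.97 to 13701, and log2 was taken of each. For every probe set the higher group geometric mean was at least 20.001, as a filter at 20 would leave. Over the 12780 genes the median intensity of an array ran from 49.6 to 55.7. The interquartile range of log2 intensities ran from 1.74 to 2.31, so the arrays did not share 1 distribution. Why they differed in this way after the processing named in the notes was not tested. All 63 members had geometric means above 20 in both groups. Single arrays of some members lay below 20, such as Hspb7 at 15.7 on stimulated replicate 1 and Dnajc18 at 19.1 on unstimulated replicate 3.

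Of the probe sets, 13963 had 1 symbol in the platform annotation, 970 several and 2618 none. Those with 1 symbol gave 12780 genes, each by its brightest probe set. The members had 85 probe sets with 1 symbol, and 10 further probe sets that name a member with other genes were described or left out. The comparison used lmFit and eBayes of limma 3.58.1 under R 4.3.3, two-sided and with no covariate, with Benjamini-Hochberg adjustment over all 12780 genes and 95% intervals from the moderated fit. The fit was also run on simulated arrays whose noise was independent between genes and arrays. Those lack any likeness between arrays of different groups, so the run cannot show how the fit behaves with it. Arrays have no read depth, so their number limits the precision. Plots were made in Python 3.11.15 (matplotlib 3.10.9).

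Members, families, companion lists and named genes (members with the largest statistics in each direction, the brightest and dimmest of each family, those with several probe sets and 28 fixed symbols) were chosen with earlier results of these data known. Members outside this rule are named to account for all 63. Clec9a, Xcr1, Itgae, Naaa, Wdfy4, Hsf2, Hsf5, Ppp1r15a and Sel1l were named after their values were seen. The alternatives tried were a trended robust variance fit, leaving out dim genes, a quantile normalisation of the gene values, centring and array weights. Others were a covariate, other probe set rules, the replicate number as a block, each array left out and other thresholds.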

Additional observations from a re-analysis of the deposited data

How the results depend on the processing

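The 2 genes higher and 0 lower of the whole table became 5 and 1 with a quantile normalisation of the gene values. With centring on medians they were 3 and 1, and with array weights 28 and 18. With a covariate for the arrays' interquartile range they were 11 and 4, and with the replicate block 30 and 8. Without any 1 array, and at an adjusted p under 0.01, 0 genes were higher. Leaving out an array leaves fewer samples, and otherwise the cause was not tested. Of the members, 1 was called higher with array weights, with the covariate and with the replicate block, Hspa2 each time (log2 differences 2.19, 1.93 and 2.07), and 0 in the other fits. Its limma adjusted p with the replicate block was 0.0061. The block rests on equal numbers: deviations of equal-numbered arrays from their group means correlated by 0.727, 0.594 and 0.061 for numbers 1, 2 and 3, and unstimulated replicate 3 correlated better with stimulated replicate 2 (0.195), so equal numbers were not taken as pairs. The median of the members stayed between -0.02 and 0.06. Of 40 genes named by the rule, 18 changed sign in at least 1 of 14 fits without the block, all with intervals that held 0. Dim signal limits the 9 members under the lower quartile.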
